A study of Mus musculus with 15 samples.

Results

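Chemokine ligands are small secreted proteins that draw leukocytes along a gradient by binding receptors on their surface. The set described here is every protein-coding row of the count table whose symbol is Ccl, Cxcl, Cx3cl or Xcl followed by a digit, together with Pf4 (Cxcl4) and Ppbp (Cxcl7). It holds 46 of the 47729 rows and 40 different symbols, because 6 rows repeat a symbol. 36 rows had counts in at least 1 of the 15 columns of the table, and 21 had counts in all of them. The other 10 rows were at 0 throughout and are the rows of Ccl21a, Ccl21b, Ccl21c and Ccl27b, the repeated rows of Ccl27a and a repeated row of Ccl19. These genes have near-identical copies, so a 0 there does not show that the genes were silent, and the counts of Ccl27a and Ccl19 are uncertain for the same reason.

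CC ligands such as Ccl2 act mainly on monocytes and macrophages through CCR receptors, ELR-bearing CXC ligands such as Cxcl1 and Cxcl2 act on neutrophils through CXCR2, and the interferon-induced ligands Cxcl9 and Cxcl10 act on T cells through CXCR3. Cxcl12 binds CXCR4 and the atypical receptor ACKR3, and holds cells in tissue niches. In the atherosclerotic artery, the CCR2 and CX3CR1 axes are known for bringing monocytes into the plaque, and macrophages are themselves a source of many of these ligands.

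RNA came from F4/80+ CD64+ macrophages sorted from aortas and divided by the sort into cells labelled Olfr2+ and Olfr2-, where Olfr2 is an olfactory receptor gene. Both groups came from female Apoe-/- mice (the genotype label reads Apoe dko), which lack apolipoprotein E and are prone to atherosclerosis, after 4 weeks on the diet labelled as high fat, and neither an Apoe-sufficient nor a normal-diet group was analysed here. The aortas of 4 mice were pooled, and 100 to 200 cells were lysed for each Smart-Seq2 library, a method that copies whole transcripts from few cells, here with 18 PCR cycles for the cDNA and 9 for the library. The labels call the sorts technical replicates, so every p-value below measures only the spread between these sorts, which may be technical, and not a spread between animals.

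The table held 5 columns labelled Olfr2- (samples 1, 3 and 4, with columns of a sample told apart by letters) and 10 labelled Olfr2+ (samples 2, 3 and 4), with 29.9 to 95.6 M counts each (M, 1000000). All 7 columns above 60 M were Olfr2+ (2A to 2D and 3A to 3C), while the 8 below were the 5 Olfr2- columns and Olfr2+ 3D, 4A and 4B. Counts of Olfr2 went against the label: they were 76, 34 and 35 in Olfr2- samples 1, 3 and 4, and 1, 9 and 8 in Olfr2+ samples 2, 3 and 4, so a direction given below is between libraries labelled Olfr2+ and libraries labelled Olfr2-. The 10 macrophage markers, among them Adgre1 (F4/80) and Fcgr1 (CD64), were detected in every column. Their summed level was 7483 to 15516 counts per 1000000 of the column total (CPM) in the 7 deep columns, 2093 to 3905 in Olfr2+ 3D, 4A and 4B, and 1252 to 8375 under the Olfr2- label. Much of this was Lyz2, at 4740 to 10335, 1320 to 2135 and 716 to 7847 CPM in these 3 sets. Adgre1 had medians of 210, 54.6 and 26.7 CPM. Fcgr1 was low outside the deep columns, with medians of 44.2, 1.24 and 4.49 CPM, and fell to 0.54 in a deep column. The purity of the sort was not tested. Markers of other cells were abundant: the 10 fibroblast markers summed to 31781 to 38427, 2638 to 4988 and 2281 to 4002 CPM in the same 3 sets. The 8 B cell markers, mostly Igkc and Ighm transcripts, summed to 213 to 5399, 35251 to 54918 and 22938 to 41542 CPM. In bulk RNA of this kind, fewer cells of a type and less RNA per cell cannot be told apart.

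Per kilobase of exon, the most abundant ligands in the Olfr2- samples were Ccl4, Ccl9, Cxcl2, Ccl6 and Ccl2, and in the Olfr2+ samples Ccl6, Ccl4, Ccl2, Cxcl2 and Ccl9, so the same 5 genes led under both labels. On the scale of CPM of the sample total per kilobase (mean ± SD, n = 3), Ccl4 stood at 637 ± 349 and Ccl9 at 308 ± 396 in Olfr2-. The next in that order were Cxcl2 at 219 ± 125, Ccl6 at 174 ± 63.2 and Ccl2 at 150 ± 105, and neighbours in the order differed by less than their SD. In Olfr2+ Ccl6 stood at 1046 ± 646, followed by Ccl4 at 356 ± 386 and Ccl2 at 245 ± 66.2, and the gap between Ccl6 and Ccl4 was slightly larger than either SD. Cxcl12 was 16th of the 36 ligands with counts in Olfr2- at 8.07 ± 3.69 and 8th in Olfr2+ at 106 ± 84.1. The heat map of all ligands by column shows the same division and how low most of the other ligands were.

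**Figure D1:**
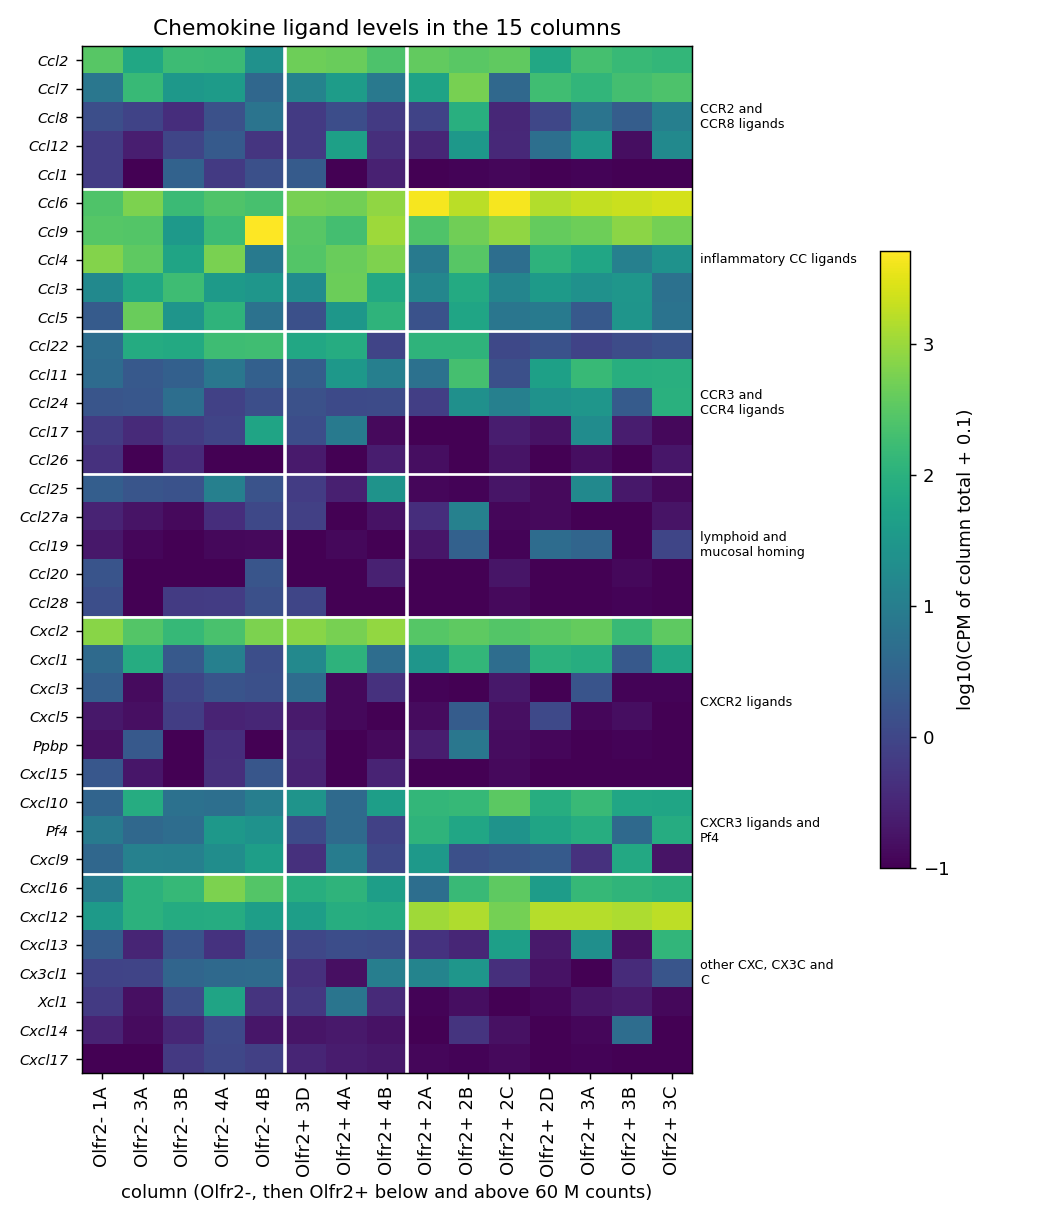
Levels of the ligands with counts, grouped by receptor or role, in each of the 15 columns (colour, log10 of CPM of the column total plus 0.1; columns ordered as Olfr2-, then Olfr2+ below and above 60 M counts). Ccl6 and Cxcl12 are bright in the 7 columns at the right, Cxcl2 is bright in all columns, and Ccl9 is brightest in Olfr2- 4B at 5141 CPM.

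Summed over all ligands, chemokine counts made up 2397, 2134 and 4394 CPM of the sample total in Olfr2- samples 1, 3 and 4, and 6267, 5269 and 3582 CPM in Olfr2+ samples 2, 3 and 4. The ranges overlapped, since Olfr2- sample 4 lay above Olfr2+ sample 4. As a share of these counts, which is not corrected for length, the leading ligand was a different gene in each Olfr2- sample: Cxcl2 with 30.8% in sample 1, Ccl6 with 20.8% in sample 3 and Ccl9 with 52.9% in sample 4. Ccl6 led in Olfr2+ samples 2 and 3 with 47.6% and 37.6%, with Cxcl12 second at 18.3% and 26.0%, while in Olfr2+ sample 4 Cxcl2 led with 19.6%. The plot of the ligand makeup by column shows that Olfr2+ 3D, 4A and 4B resemble the mixed Olfr2- columns more than the 7 deep columns of their own label, and this is a description of the picture with no test.

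**Figure D2:**
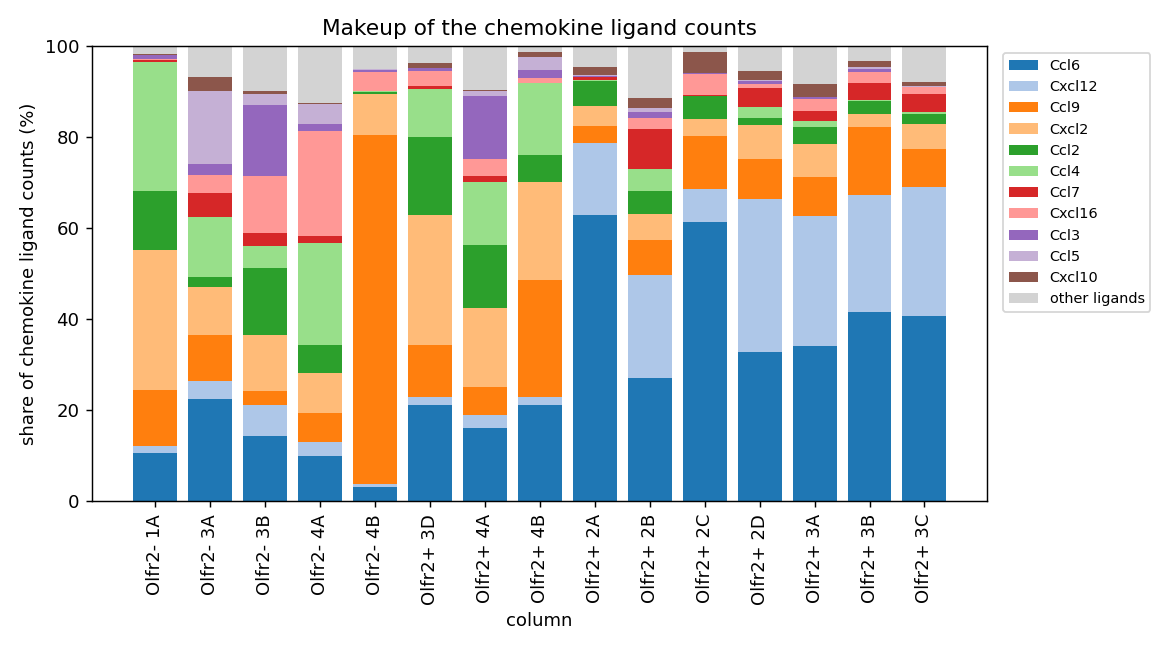
Share of all chemokine ligand counts taken by each ligand (stacked bars to 100%, not corrected for gene length) in each of the 15 columns. Ccl6 (dark blue) and Cxcl12 (light blue) together fill 49.7% to 78.8% of the bars of the 7 Olfr2+ columns above 60 M counts and 3.88% to 26.3% of the other 8, and Ccl9 (dark orange) takes 76.6% in Olfr2- 4B.

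The comparison of the labels over all columns (3 samples against 3) describes which ligands differ between libraries labelled Olfr2+ and Olfr2-. All columns above 60 M are Olfr2+. In this comparison the label therefore cannot be told apart from depth, or from the fibroblast and B cell marker levels that differ with depth. Ccl6, Cxcl12 and Ccl11 were higher in the libraries labelled Olfr2+, by 3.92 ± 0.82, 5.003 ± 1.04 and 5.29 ± 1.37 on the log2 scale (± SE), and no ligand was lower. These were 3 of the 31 ligand rows that passed the filter on low counts, by the quasi-likelihood test of edgeR with a Benjamini-Hochberg adjusted p under 0.05 over all 24362 genes tested. The background is that 1.12% of all genes tested were called higher and 0.46% lower, and on column totals alone 86 genes were called higher and 310 lower in place of 273 and 112. The 15 ligand rows that did not pass the filter include the 10 at 0. With an unadjusted p under 0.05, 13 ligands had positive log2 fold changes and Ccl28 a negative one, against 17.1% and 15% of all genes tested (32.1% in both directions). DESeq2 called 8 ligands higher and Ccl28 lower. Over all genes it called 14.9% higher and 13.7% lower, so the 9 of 31 ligands were close to its 28.6% in both directions. limma-voom called no ligand and 0% of all genes. 25 of the 31 ligands had a positive log2 fold change (80.6%, against 52.5% of all genes tested), with a median of 1.94 against 0.24 for all genes. With scaling by column totals in place of the trimmed mean of M values (TMM), the median of all genes moved to -0.88 and that of the ligands to 0.70. In 8 ligands, 7 of them higher, the 3 samples of each label did not overlap, which was also true of 35.5% of all genes tested. On sample totals, without TMM, 5 ligands did not overlap, against 36.1% of all genes.

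Ccl6 and Ccl9, with Ccl3, Ccl4 and Ccl5, form a group of inflammatory CC ligands. Ccl6, also called C10, is a mouse ligand of CCR1 made by macrophages. It (ENSMUSG00000018927.3) stood at 154, 332 and 159 TMM-scaled CPM in Olfr2- samples 1, 3 and 4, and at 6154, 2809 and 771 in Olfr2+ samples 2, 3 and 4. All 3 Olfr2+ samples lay above all 3 Olfr2- samples, and the spread within Olfr2+ was wide. By column the labels overlapped for Ccl6. Olfr2+ 4A and 3D, at 512 and 566 CPM of the column total, lay below Olfr2- 3A at 611. The call (adjusted p = 0.0284) was lost without Olfr2+ sample 2 (3.07, adjusted p = 0.144) and without Olfr2- sample 4 (3.62, adjusted p = 0.0633). It was also lost with scaling by column totals (2.58, adjusted p = 0.0616), with only genes averaging 10 CPM or more (2.09, 0.276), with limma-voom (3.81, 0.102), with the replicate block (2.68, 0.470) and with depth as a covariate (1.67, 0.421). For the label difference, the block draws on samples 3 and 4 alone, and the depth covariate on the columns below 60 M alone. Among columns below 60 M counts alone, the log2 fold change of Ccl6 was 1.74 ± 0.86 (adjusted p = 0.492).

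Ccl9, a neighbour of Ccl6 on chromosome 11 and also a CCR1 ligand, stood at 179, 140 and 1536 TMM-scaled CPM in Olfr2- and at 1042, 783 and 662 in Olfr2+. The high Olfr2- sample is number 4, where column 4B held 5141 CPM of the column total and column 4A 169, so the groups overlapped. Its log2 fold change of 0.42 ± 0.86 (adjusted p = 0.726) became 2.34 without Olfr2- sample 4. Ccl3 and Ccl4, which are macrophage inflammatory proteins, also overlapped: Ccl4 stood at 412, 182 and 222 in Olfr2- and 231, 92.2 and 608 in Olfr2+. Ccl3 stood at 10.5, 81.0 and 22.5 in Olfr2- and 73.4, 28.4 and 319 in Olfr2+, the highest value being that of Olfr2+ sample 4. Ccl5 (RANTES), typical of activated T cells as well as macrophages, stood at 1.31, 212 and 45.7 in Olfr2- and 40.6, 14.96 and 79.4 in Olfr2+. The log2 fold changes of Ccl3, Ccl4 and Ccl5 were 1.89, 0.19 and -0.94 with adjusted p from 0.239 to 0.886. The sign of Ccl4 turned with scaling by column totals (-0.84).

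The bases before the start sites of Ccl6 and Ccl9 are shown because Ccl6 was called between the labels and its neighbour Ccl9 was not. They come from the RefSeq table for the build GRCm38.p6, in which 29 of the 40 ligand symbols had an entry, and are read along the minus strand: chr11:83593088-83593337 for Ccl6 and chr11:83578637-83578886 for Ccl9, each the 250 bases before the annotated start and outside the gene's own exons. Capitals mark matches to any of 4 motifs: a kappaB form GGGNNNTTCC, an interferon response form TTTCNNTTTC and an AP-1 form TGANTCA, each searched on both strands, and a TATA form TATAAA on the gene's strand. A match is a description and not a binding site. The label differences of Ccl6 and Ccl9 were not compared with each other, and no link between motifs and levels was tested.
Ccl6: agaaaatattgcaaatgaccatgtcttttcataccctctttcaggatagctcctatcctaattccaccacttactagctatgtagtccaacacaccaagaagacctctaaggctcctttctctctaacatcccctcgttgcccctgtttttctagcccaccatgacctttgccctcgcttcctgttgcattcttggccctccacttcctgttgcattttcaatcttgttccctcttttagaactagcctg
Ccl9: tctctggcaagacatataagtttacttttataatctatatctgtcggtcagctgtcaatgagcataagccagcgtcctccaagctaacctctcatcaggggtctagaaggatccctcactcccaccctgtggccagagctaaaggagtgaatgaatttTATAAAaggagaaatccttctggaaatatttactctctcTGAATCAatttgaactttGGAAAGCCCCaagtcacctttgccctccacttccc
The Ccl6 stretch had no match to these letters, while that of Ccl9 had a TATA form 92 bases before the start, an AP-1 form at 53, which reads the same on both strands, and a kappaB form at 35. In windows of 300 bases around the start, the kappaB form occurred in 7 of the 29 ligands (24.1%) and in 5.56% of all 32851 promoters of the table. The AP-1 form occurred in 7 (24.1%, against 7.81%), the interferon response form in 3 (10.3%, against 3.44%) and the TATA form in 10 (34.5%, against 8.32%). A ligand was counted where any of its start sites matched, while the share of all promoters counts each start site singly, which can raise the ligand shares. These shares were not tested.

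Cxcl12, the ligand of CXCR4, is made mostly by stromal cells. It (ENSMUSG00000061353.11) stood at 21.8, 72.3 and 43.2 TMM-scaled CPM in Olfr2- samples 1, 3 and 4, and at 2364, 1944 and 94.7 in Olfr2+ samples 2, 3 and 4. Samples 2 and 3 of Olfr2+ lay far above all others, and Olfr2+ sample 4 was only slightly above the highest Olfr2- sample. On sample totals it was below it, at 82.2 against 96.4 CPM. The call (adjusted p = 0.0284) held with scaling by column totals (3.71, adjusted p = 0.0461) and was lost without Olfr2+ sample 2 (4.45, adjusted p = 0.110). It was also lost with only genes averaging 10 CPM or more (3.22, adjusted p = 0.252), with limma-voom (4.62, 0.104), with the replicate block (2.94, 0.640) and with depth as a covariate (0.63, 0.792). Among columns below 60 M, the difference was 0.68 ± 1.26 (adjusted p = 0.865) and turned sign with scaling by column totals (-0.06). The fibroblast marker Dcn followed the same columns, with 10164 to 18523 CPM of the column total in the 7 deep columns, 1213 to 2830 in Olfr2+ 3D, 4A and 4B, and 1273 to 1881 under Olfr2-. 9 of the 10 fibroblast markers and 4 of the 10 macrophage markers were called higher in Olfr2+ in the same fit, and their part in the Cxcl12, Ccl6 and Ccl11 results was not tested.

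The stretch before the Cxcl12 start, at chr6:117168285-117168534 on the plus strand of the same build, is shown beside that of Ccl6 because both genes were called in the 2 comparisons that include the deep columns.
Cxcl12: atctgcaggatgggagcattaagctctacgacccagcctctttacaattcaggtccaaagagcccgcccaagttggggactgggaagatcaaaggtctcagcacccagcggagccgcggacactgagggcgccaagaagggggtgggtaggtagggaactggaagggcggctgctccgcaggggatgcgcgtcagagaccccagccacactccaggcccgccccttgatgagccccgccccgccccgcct
It had no match to the 4 motifs either, and its share of G and C was 64.4% against 45.2% for Ccl6.

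Ccl11, Ccl24, Ccl17 and Ccl22 are ligands for CCR3 and CCR4. Ccl11 (eotaxin), which attracts eosinophils through CCR3 (ENSMUSG00000020676.2), stood at 2.60, 1.68 and 3.51 TMM-scaled CPM in Olfr2- samples 1, 3 and 4, and at 140.5, 139.8 and 25.8 in Olfr2+ samples 2, 3 and 4. The summed samples of the 2 labels did not overlap for Ccl11, but the columns did. Olfr2+ 2C, 3D and 2A held 1.33, 2.36 and 5.51 CPM of the column total, within or below the 1.99 to 7.31 of the Olfr2- columns. Ccl11 stood at 10.5 to 208 CPM in the other Olfr2+ columns. Its adjusted p of 0.0483 was just under the threshold, and without any sample other than Olfr2+ sample 4 it was above it: 0.100, 0.0739 and 0.0947 without Olfr2- samples 1, 3 and 4, and 0.155 and 0.130 without Olfr2+ samples 2 and 3. It was also above it with scaling by column totals (0.0714), limma-voom (0.102), only genes averaging 10 CPM or more (0.252), depth as a covariate (0.493) and the replicate block (0.713). Ccl24 (eotaxin-2) stood at 0.99, 2.23 and 0.63 in Olfr2- and 31.4, 53.0 and 1.25 in Olfr2+, with a log2 fold change of 4.47 ± 1.64 (adjusted p = 0.0919). Ccl22, made by dendritic cells and alternatively activated macrophages, stood at 3.00, 58.1 and 117 in Olfr2- and at 119, 13.0 and 54.3 in Olfr2+. Its groups overlapped fully, its log2 fold change was 0.06 ± 1.22, and the sign turned with scaling by column totals (-1.19). Ccl17 and Ccl26 stayed below 1 CPM of the column total in most columns. Ccl17 reached 55.7 CPM in Olfr2- 4B, 19.4 in Olfr2+ 3A and 8.57 in Olfr2+ 4A.

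**Figure D3:**
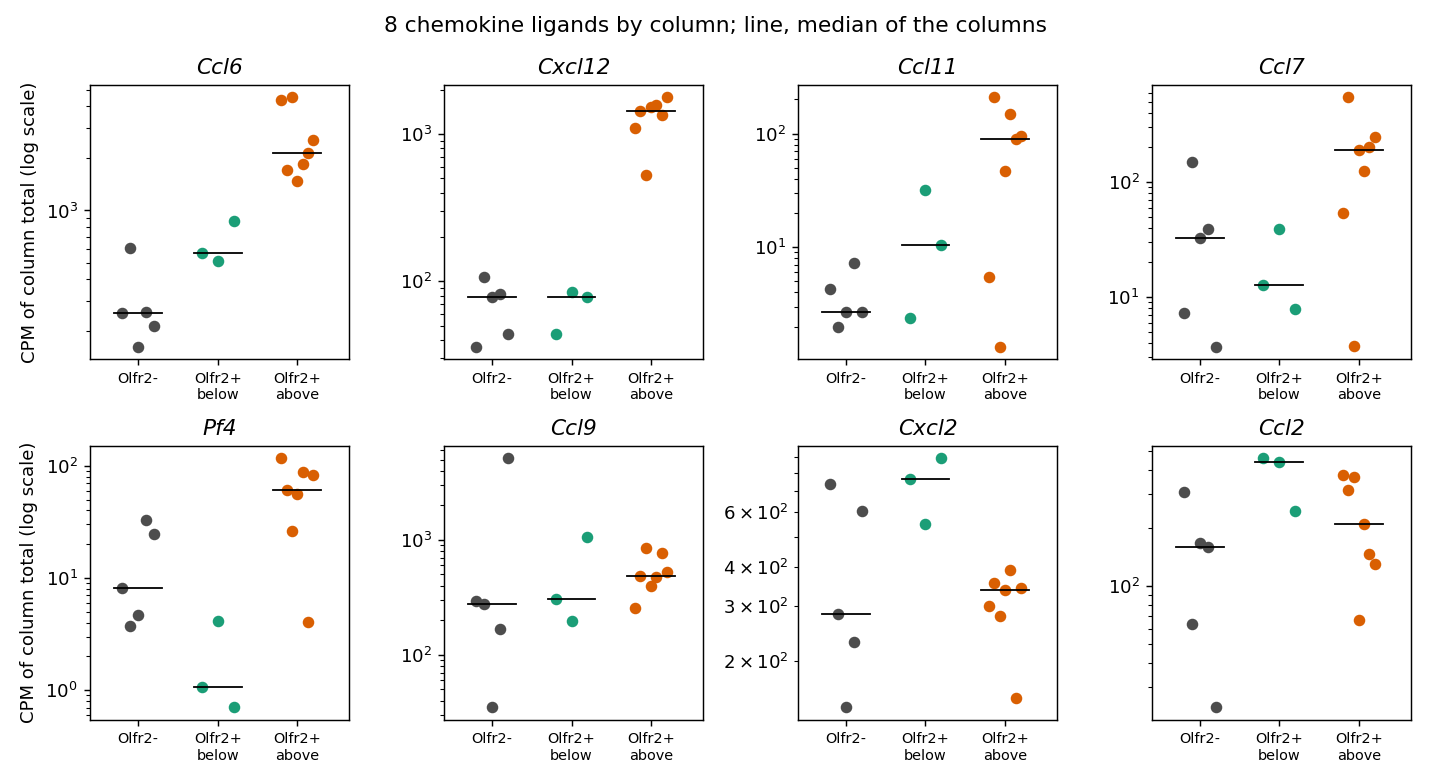
CPM of the column total (log scale) of 8 ligands in the 5 Olfr2- columns (grey), the 3 Olfr2+ columns below 60 M counts (green) and the 7 above (orange); each point is a column and each line the median of the set. For Cxcl12 the 7 deep columns at 530 to 1773 CPM lie above the other 8 columns at 36.1 to 107, and for Cxcl2 the deep columns lie among or below the others.

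The ligands of CCR2 and CCR8 are Ccl2, Ccl7, Ccl8, Ccl12 and Ccl1. Ccl2 (MCP-1), the main attractant of inflammatory monocytes, stood at 186, 76.5 and 66.4 TMM-scaled CPM in Olfr2- samples 1, 3 and 4, and at 581, 286 and 406 in Olfr2+ samples 2, 3 and 4. The labels did not overlap on this scale, and the log2 fold change was 1.95 ± 0.92 (adjusted p = 0.146). On sample totals they did, since Olfr2- sample 1 at 308 CPM lay above Olfr2+ samples 2 and 3 at 281 and 201.5. Ccl12 (MCP-5), a further CCR2 ligand found in mice, stood at 0.36, 0.31 and 0.91 in Olfr2- and 20.4, 22.3 and 31.0 in Olfr2+. Its samples did not overlap either, and its difference of 5.54 ± 1.65 was the largest of the ligands tested while its adjusted p was 0.067; DESeq2 called it. By column, Ccl12 stood at 5.14 to 48.0 CPM of the column total in Olfr2+ 2B, 2D, 3A, 3C and 4A, while the other 5 Olfr2+ columns, at 0.05 to 0.53, lay within or below the 0.15 to 2.10 of the Olfr2- columns. Ccl7 (MCP-3) stood at 4.43, 78.9 and 15.5 in Olfr2- and 420, 236 and 29.3 in Olfr2+ (2.79 ± 1.19, adjusted p = 0.121), with overlap through Olfr2- sample 3. Ccl8, which in mice acts through CCR8, stood at 0.75, 0.46 and 2.34 in Olfr2- and at 50.9, 8.03 and 1.03 in Olfr2+ (4.07 ± 1.69, adjusted p = 0.115). Its Olfr2+ sample 4 lay within the Olfr2- range. None of the 5 passed, and Ccl1 was under 3 CPM of the column total in every column.

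Cxcl1, Cxcl2, Cxcl3, Cxcl5, Cxcl15 and Ppbp are ligands for CXCR2, the neutrophil receptor. Cxcl2 stood at 447, 173 and 260 TMM-scaled CPM in Olfr2- samples 1, 3 and 4, and at 657, 506 and 808 in Olfr2+ samples 2, 3 and 4. All Olfr2+ samples lay above all Olfr2- samples on this scale, with a log2 fold change of 1.16 ± 0.82 (adjusted p = 0.292). Cxcl1 (KC) also did not overlap, with 2.54, 39.4 and 4.62 in Olfr2- and 141, 67.4 and 75.0 in Olfr2+ (2.60 ± 1.26, adjusted p = 0.155). On sample totals both overlapped, with Olfr2- sample 1 the highest of all for Cxcl2 (738 CPM) and Olfr2- sample 3 at 52.6 CPM above Olfr2+ sample 3 at 47.5 for Cxcl1. The other 4 were low: the highest column value was 4.43 CPM for Cxcl3, 2.22 for Cxcl5, 1.80 for Cxcl15 and 7.35 for Ppbp. None of the 5 tested passed.

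Cxcl9 and Cxcl10 are induced by interferon gamma and bind CXCR3, and Pf4 is best known from platelets but is also made by macrophages. Cxcl10 stood at 1.91, 40.5 and 4.92 TMM-scaled CPM in Olfr2- samples 1, 3 and 4, and at 363, 121 and 24.8 in Olfr2+ samples 2, 3 and 4. Only Olfr2- sample 3 reached the Olfr2+ range, and the log2 fold change was 3.43 ± 1.30 (adjusted p = 0.0981). Pf4 stood at 4.90, 3.06 and 19.4 in Olfr2- and at 133, 73.2 and 2.99 in Olfr2+, where sample 4 was the lowest of all 6 (2.93 ± 1.39, adjusted p = 0.148). The 8 platelet and megakaryocyte markers summed to 1.75 to 138 CPM of the column total in the deep columns, 5.86 to 34.8 in Olfr2+ 3D, 4A and 4B and at most 46.7 under the Olfr2- label, and none of the 7 tested was called. Cxcl9 stood at 2.24, 8.57 and 20.2 in Olfr2- and 19.0, 28.4 and 6.42 in Olfr2+ (0.80 ± 1.39, adjusted p = 0.676), and its sign turned with scaling by column totals (-0.40).

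The stretches before the starts of Cxcl1 (chr5:90890995-90891244, plus strand), Cxcl2 (chr5:90903649-90903898, plus strand) and Cxcl10 (chr5:92348890-92349139, minus strand) are shown because these inflammatory ligands carry the kappaB form that Ccl6 and Cxcl12 lacked in this window.
Cxcl1: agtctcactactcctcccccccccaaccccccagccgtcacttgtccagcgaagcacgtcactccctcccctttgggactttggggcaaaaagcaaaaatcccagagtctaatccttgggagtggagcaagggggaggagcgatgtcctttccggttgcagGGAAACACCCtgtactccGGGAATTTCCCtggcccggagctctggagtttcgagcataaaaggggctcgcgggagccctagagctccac
Cxcl2: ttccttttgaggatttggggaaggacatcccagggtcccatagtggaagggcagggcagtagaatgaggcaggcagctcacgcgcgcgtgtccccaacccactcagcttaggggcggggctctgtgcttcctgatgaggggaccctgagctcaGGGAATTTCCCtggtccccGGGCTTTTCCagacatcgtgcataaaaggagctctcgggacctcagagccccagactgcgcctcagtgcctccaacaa
Cxcl10: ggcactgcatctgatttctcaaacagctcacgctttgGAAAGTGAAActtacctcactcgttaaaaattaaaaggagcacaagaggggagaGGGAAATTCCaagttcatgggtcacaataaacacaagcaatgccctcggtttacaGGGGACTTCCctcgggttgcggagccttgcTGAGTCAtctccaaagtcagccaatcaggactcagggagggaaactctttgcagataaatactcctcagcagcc
Cxcl1 and Cxcl2 share the 11-letter run GGGAATTTCCC, in which the form matches on both strands, starting 71 and 97 bases before the start. Cxcl1 has a further match at 89 and Cxcl2 at 78. Cxcl10 has matches at 159 and 104, an interferon response form at 213 and an AP-1 form at 74.

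Of the remaining ligands, Cxcl16, a membrane-bound ligand of CXCR6 that also takes up oxidised lipoprotein, stood at 5.62, 89.2 and 308 TMM-scaled CPM in Olfr2- samples 1, 3 and 4, and at 289, 169 and 96.5 in Olfr2+ samples 2, 3 and 4. The groups overlapped, with a log2 fold change of 0.46 ± 1.08 that turned sign with scaling by column totals (-0.80). Cxcl13, the B cell attractant that binds CXCR5, stood at 1.37, 0.55 and 0.78 in Olfr2- and at 23.9, 59.2 and 1.33 in Olfr2+ (4.97 ± 1.68, adjusted p = 0.0814). Its Olfr2+ level came from 3 of the 10 columns, 2C, 3A and 3C, at 45.0, 21.6 and 125 CPM of the column total, and the other 7 were between 0.06 and 1.22. Cx3cl1 (fractalkine) reached 29.6 CPM in Olfr2+ 2B and Xcl1 (lymphotactin) 55.2 in Olfr2- 4A, each well above most of the other columns. The ligands for lymphoid and mucosal homing (Ccl19, Ccl20, Ccl25, Ccl27a and Ccl28) were the lowest group: 3 of the 15 rows were tested, none passed, and the highest value was 26.3 CPM for Ccl25 in Olfr2+ 4B. Ccl28 was the ligand with the lowest log2 fold change (-3.03 ± 1.37, adjusted p = 0.134), at 0.77, 0.16 and 0.59 against 0.02, 0.16 and 0.00 TMM-scaled CPM. A count of 3, taken as the limit that 0 counts allow, corresponded to 0.0314 to 0.100 CPM by column, and such limits cover counting error only, since the reads carry no molecular identifiers.

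When only columns below 60 M counts were compared (2 Olfr2+ samples against 3 Olfr2-), no ligand passed the test between the labels. 0 of 34 ligand rows passed by edgeR, as did 0% of the 29989 genes tested in either direction. DESeq2 called Ccl12 higher in Olfr2+, against 3.54% of all genes called higher and 0.74% lower (4.28% in both directions), and limma-voom called no ligand and 0% of all genes. Ccl12 (4.98 ± 1.73, adjusted p = 0.423) and Ccl2 (2.17 ± 0.96, adjusted p = 0.466) had unadjusted p under 0.05, 2 of 34 ligands against 10.4% of all genes (4.85% higher and 5.58% lower). The Ccl12 value rested on column Olfr2+ 4A at 48.0 CPM of the column total, where 4B held 0.33 and 3D 0.53, and without Olfr2+ sample 4 it was 0.11 (adjusted p = 0.987). Ccl2 stood at 620 and 518 TMM-scaled CPM in Olfr2+ samples 3 and 4, and at 201, 97.2 and 82.1 in Olfr2- samples 1, 3 and 4, without overlap. Ccl6 and Cxcl2 did not overlap either: Ccl6 stood at 762 and 984 against 166, 422 and 196, and Cxcl2 at 1025 and 1032 against 482, 219 and 321. On sample totals Cxcl2 did overlap, at 762 and 701 CPM against 738, 231 and 393. Pf4 lay in the other direction, at 1.43 and 3.82 against 5.29, 3.88 and 24.0 (-2.07 ± 1.58, adjusted p = 0.644). These 4 ligands without overlap of their summed samples are to be read against 26.4% of all genes tested, and the 4 without overlap on sample totals against 33.3%. By single column, Ccl2, Ccl6, Cxcl2 and Pf4 all overlapped. On CPM of the column total, Olfr2+ 4A held 512 of Ccl6 against 611 in Olfr2- 3A, and 551 of Cxcl2 against 738 in Olfr2- 1A. Ccl2 stood at 244 in Olfr2+ 4B against 308 in Olfr2- 1A, and Pf4 at 4.10 in Olfr2+ 4A against 3.74 in Olfr2- 3A. The log2 fold change of Ccl11 here was 2.54 ± 1.48 (adjusted p = 0.538), and without Olfr2+ sample 4 it was -0.02. The median log2 fold change of the ligands was 0.12, against -0.43 for all genes, with 18 positive and 16 negative.

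The Olfr2+ columns above 60 M were then set against the Olfr2+ columns below it, to show how the ligands vary inside a single label (2 units against 2; sample 3 has columns in both sets, so the units are not independent). Cxcl12, Ccl6, Ccl7 and Pf4 were higher in the deep columns, and no ligand was lower by edgeR. These are 4 of 33 ligand rows tested, against 2.83% of all 22033 genes called higher and 1.65% called lower. With an unadjusted p under 0.05, 10 ligands had positive and 3 negative log2 fold changes, and the 13 of 33 were close to the 37.1% of all genes (15.7% and 21.4%). DESeq2 called 9 ligands higher and 2 lower (Ccl1 and Xcl1) but not Ccl6. Its 11 of 33 were close to the 35.4% it called over all genes (16.7% higher and 18.7% lower), and limma-voom called no ligand and 0.00454% of all genes. Cxcl12 stood at 1568 and 1850 TMM-scaled CPM in the deep columns of samples 2 and 3, and at 33.1 and 67.7 in the other columns of samples 3 and 4 (5.08 ± 0.66, adjusted p = 0.00229). All deep units, each a sum of columns, lay above all other units for Cxcl12, and the same was true of the other 3 called ligands. Ccl6 stood at 4082 and 2589 against 424 and 551 (2.77 ± 0.47, adjusted p = 0.00994). Ccl7 stood at 279 and 223 against 9.50 and 20.9 (4.04 ± 0.98, adjusted p = 0.0428). Pf4 stood at 88.1 and 69.7 against 0.80 and 2.14 (5.75 ± 1.46, adjusted p = 0.0442). By single column, the sets stayed apart for Cxcl12 and Ccl6 but overlapped for Ccl7 and Pf4. Ccl7 stood at 3.74 to 544 CPM of the column total in the deep columns and 7.83 to 39.4 in the others. Pf4 stood at 4.03 to 117 CPM in the deep columns and 0.70 to 4.10 in the others. The Ccl7 and Pf4 calls were lost when either deep unit was left out (adjusted p 0.105 to 0.126), and the Ccl6 call without the deep columns of sample 2 (0.0633). Cxcl12 remained called without each of the 4 units. 8 of the 10 fibroblast markers and 4 of the 10 macrophage markers were also higher in the deep columns, and 2 of the 8 B cell markers were lower, and their part in these 4 results was not tested. In 21 ligands, 15 of them higher, the sets did not overlap, against 66.1% of all genes tested, and on totals in 20 ligands, against 64.6%. Cxcl2 (436 and 355 against 571 and 577) and Ccl4 (153 and 40.2 against 213 and 435) had lower values in the deep columns without passing (-0.54 ± 0.60 and -1.75 ± 0.87, adjusted p = 0.515 and 0.156).

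**Figure D4:**
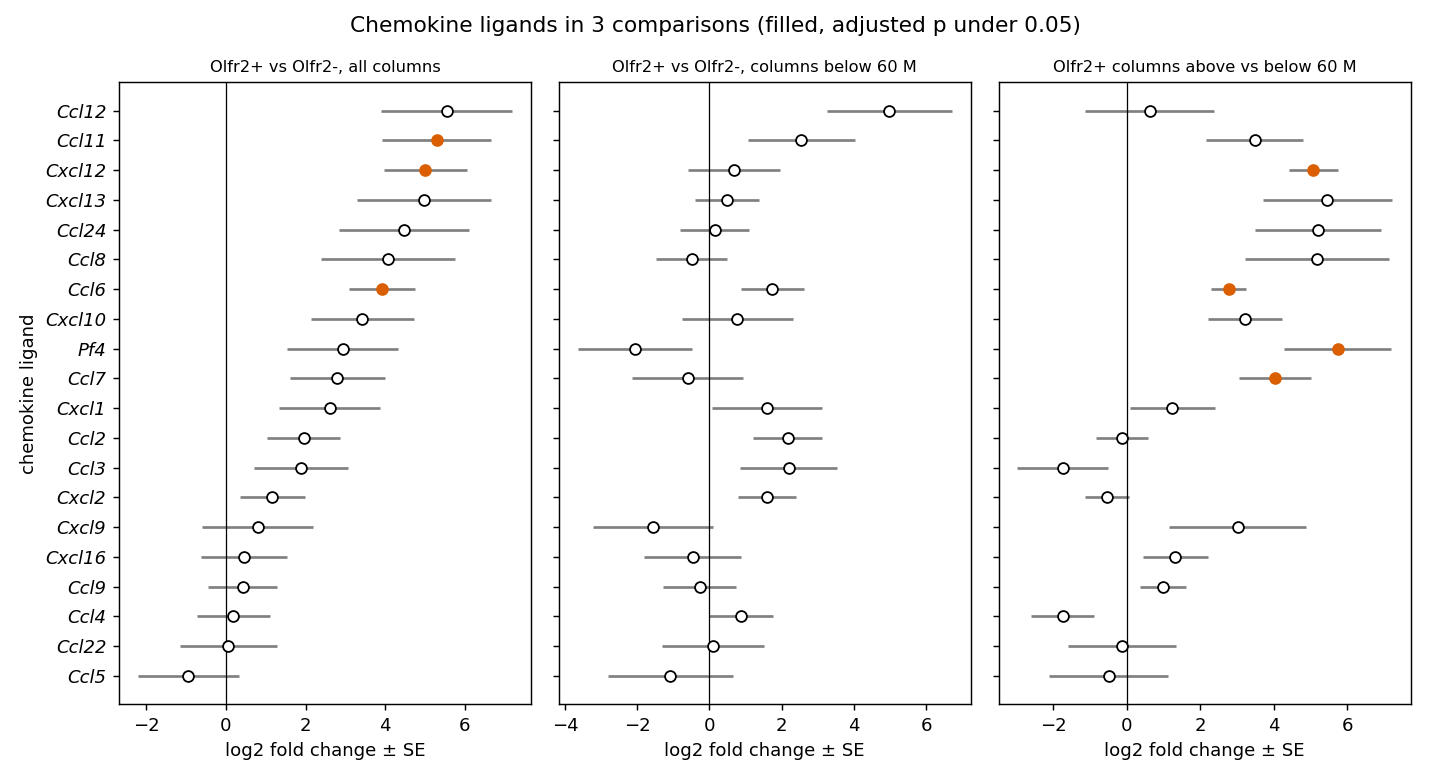
Log2 fold changes with their SE for the 20 ligands that averaged at least 10 CPM or were called, in the 3 comparisons; filled points have an adjusted p under 0.05, and a positive value is higher in Olfr2+ (left and middle) or in the deep columns (right). Cxcl12 is near 5 in the left and right panels and at 0.68 in the middle panel, while Ccl12 is near 5 in the left panel, near 5 in the middle panel through column Olfr2+ 4A alone, and at 0.62 in the right panel.

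Each column has a library name of its own, and 7 pairs of columns share a second name in their descriptions, such as Olfr2+ 2A with 2B and 2C with 2D. The labels do not say what the shared name stands for. The columns of a pair differed widely in their ligands. The same folds were not computed over all genes, so the spread is not shown to be particular to the ligands. Across the 7 pairs and the 20 ligands with a mean of at least 10 CPM, the larger value was more than 2-fold the smaller in 96 of 140 cases (68.6%) and more than 10-fold in 43 (30.7%), with a median of 3.76-fold. Cxcl2 was the most even, at 1.19-fold to 2.63-fold. Cxcl12 had a median of 1.37-fold, with the exception of the pair of Olfr2+ 3C (1773 CPM) and 3D (44.2 CPM), which lie on either side of 60 M. The 2 columns differed most for Ccl12, with 34.8 CPM in Olfr2+ 3A and 0.05 in 3B, a 673-fold difference, and for Cxcl13, with 45.0 CPM in Olfr2+ 2C and 0.11 in 2D, a 406-fold difference. The lower columns held only 4 counts of Ccl12 and 10 of Cxcl13. Ccl4 ranged from 588 CPM in Olfr2- 4A to 8.76 in 4B, and Ccl5 from 436 in Olfr2- 3A to 28.0 in 3B. None of the 105 pairs of columns agreed within sampling noise over all genes (chi-square per degree of freedom of 573 or more), a check for libraries deposited more than once that takes account of counting error only and not of the spread that amplification adds.

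**Figure D5:**
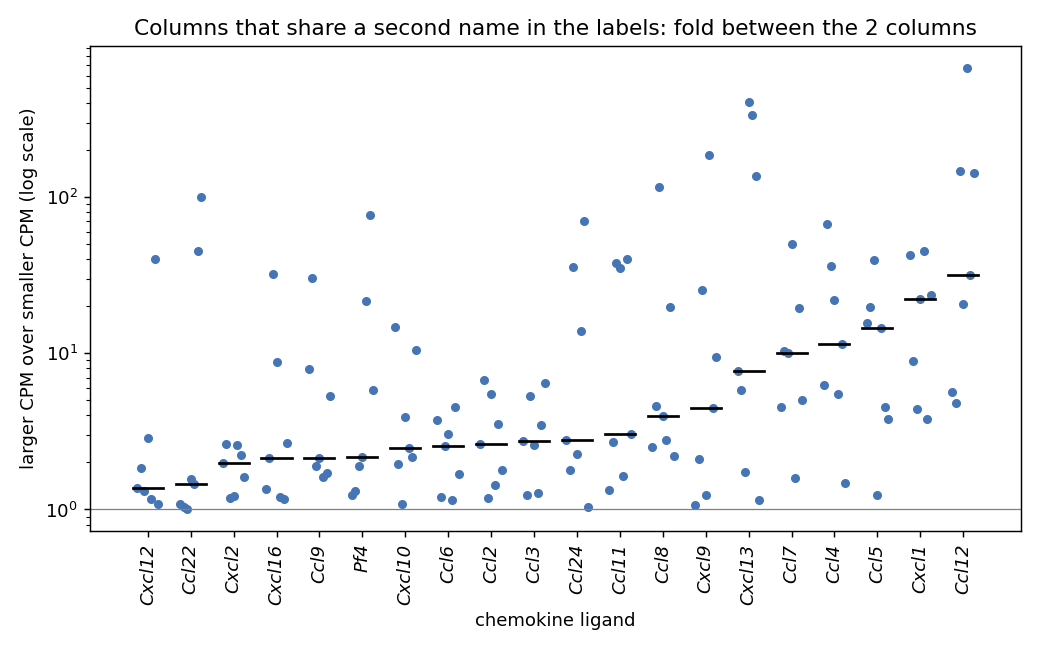
Fold between the 2 columns that share a second name in the labels (larger CPM over smaller CPM, log scale) for 20 ligands, ordered by their median (line); each point is 1 of 7 pairs. Cxcl2 stays at or under 2.63-fold in all pairs, while Ccl12 and Cxcl13 reach 673-fold and 406-fold.

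The receptors of these ligands were taken from a list of 17 signalling and 5 atypical receptors. None of the 20 tested was called between the labels by edgeR, and 6 had an unadjusted p below 0.05, close to the 32.1% of all genes. By DESeq2 5 were higher and 1 was lower, close to the 28.6% it called over all genes, and limma-voom called none. Ackr3, the atypical receptor for Cxcl12, had a log2 fold change of 5.09 ± 1.40 (adjusted p = 0.0561), with a mean of 166 TMM-scaled CPM in Olfr2+ and 4.86 in Olfr2-. By column, Ackr3 stood at 10.5 to 404 CPM of the column total in the 7 deep columns. It stood at 2.54 to 42.8 in Olfr2+ 3D, 4A and 4B, with a median of 2.90, and at 5.54 to 9.20 under the Olfr2- label. In the columns below 60 M, 0 of 22 receptors were called by edgeR and by limma-voom, and 3 had an unadjusted p below 0.05 (10.4% of all genes), while 2 were higher by DESeq2 (3.54% of all genes). Within Olfr2+, Cxcr4, the signalling receptor for Cxcl12, was lower in the deep columns (-4.86 ± 0.94, adjusted p = 0.0189), with means of 10.8 and 315 TMM-scaled CPM. It was the only one of the 21 receptors tested there that edgeR called, in the opposite direction to its ligand, and no receptor was called without the deep columns of sample 2. By DESeq2 1 was higher and 8 were lower (16.7% and 18.7% of all genes), and limma-voom called none. By column, Cxcr4 stood at 5.61 to 13.1 CPM of the column total in the 7 deep columns, 293 to 579 in Olfr2+ 3D, 4A and 4B, and 142 to 540 under the Olfr2- label. Ccr2, the receptor for Ccl2, Ccl7 and Ccl12, stood at 188 to 326, 272 to 902 and 90.5 to 651 CPM in the same sets, so the 3 ranges overlapped.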

How the data were processed

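RNA-seq of sorted aortic macrophages was analysed from the deposited table of whole-number read counts per gene. The submitters' processing notes list DRAGEN, DESeq2 1.34, STAR 2.7.1 and, as build, GRCm39, without roles. The sources used here do not give how strand was handled or which annotation was used. 99.12% of the row identifiers were in GENCODE M21 (GRCm38), which gave exon lengths. All rows name a gene. Reads of overlapping or antisense genes cannot be told apart, and 18 plus 9 PCR cycles without molecular identifiers mean that reads of a gene can stem from the same molecule.

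The title's number was taken to mark the sample and its letter the repeat, which the labels do not state, and counts were summed per sample (30.5 to 363.9 M). Levels are counts per 1000000 (CPM) of the column or sample total, or scaled with TMM. Genes were tested by edgeR 4.0.16 (quasi-likelihood F test, R 4.3.3) after its expression filter by group, with a Benjamini-Hochberg adjusted p under 0.05 over all genes tested, and each SE was derived from the gene's log2 fold change and F value. The 3 comparisons took all columns, columns below 60 M counts, and Olfr2+ columns above against below 60 M, a division chosen with the gap in column totals known. Scaling by totals, DESeq2 1.42.0, limma-voom (limma 3.58.1), other filters, a replicate block, sums per second name shared in the descriptions, depth as a covariate and leaving out each sample were alternatives. The sums per second name and the depth covariate take parts of an Olfr2+ sample as separate units, which are not independent. With the depth covariate, the label difference rests on the columns below 60 M, so it is no separate check from that comparison. The fits were also run on counts simulated for independent samples with edgeR's own dispersions. Such counts cannot show how the fits fare with technical replicates or with a label tied to depth. Values by sample are given for the 20 ligands with a mean of at least 10 CPM over the 6 samples or called in any comparison. 1 receptor of the list is not reported here. The members, lists and settings were chosen with earlier results of these data known. Promoter sequences are from RefSeq (GRCm38.p6), and Ccl11, Ccl2, Ccl21c, Ccl24, Ccl26, Ccl4, Ccl5, Ccl7, Cxcl16, Cxcl17 and Cxcl5 had no entry.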

Additional observations from a re-analysis of the deposited data

Results flagged for a closer look

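For each of the 20 ligands and each label, the highest or lowest column was compared with the rest of its label by its gap to the nearest column over the whole range, on CPM of the column total. 17 of 40 sets of columns had a column beyond the 95% limit of Dixon's test, where chance gives about 1 in 20 for independent, normally distributed values. CPM values are neither log-transformed nor symmetric, and the Olfr2+ sets mix deep and other columns, so the 17 are not to be read against that rate. All 17 were the highest column of their set. 5 of them lay in Olfr2- 3A: Ccl6 at 611 CPM, Ccl5 at 436, Ccl7 at 149, Cxcl1 at 82.9 and Cxcl10 at 82.9. In Olfr2- 4B, Ccl9 stood at 5141 CPM and Ccl8 at 6.36, and in Olfr2- 3B Ccl24 stood at 4.96. Among the Olfr2+ columns, 2B stood apart for Ccl7 at 544 CPM and Ccl8 at 92.0, 2C for Cxcl16 at 345 and Cxcl10 at 338, and 3C for Cxcl13 at 125 and Ccl24 at 98.2. Single Olfr2+ columns also stood apart for Ccl3 (443 in 4A), Ccl5 (117 in 4B) and Cxcl9 (70.0 in 3B). No explanation was tested for any of these columns, and the letter of a column has no order.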

How the results depend on the processing

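Over all columns, the count of ligands called higher, 3 by edgeR, was 1 with scaling by column totals, 8 with DESeq2 (which also called 1 lower), and 0 with only genes averaging 10 CPM or more, with limma-voom, with the replicate block and with depth as a covariate. It ran from 0 (without Olfr2+ sample 2) to 5 (without Olfr2+ sample 4) when each sample was left out, and was 1 without Olfr2- sample 4. The 3 ligands were Ccl6, Cxcl12 and Ccl11, and the one still called with column totals was Cxcl12, which was also the one called between deep and other Olfr2+ columns with column totals and with at least 10 CPM. Below 60 M, DESeq2 called 1 ligand where edgeR called 0. Between deep and other Olfr2+ columns, the 4 calls became 1 with column totals, 9 with DESeq2 (and 2 lower), 8 with no filter, 1 with at least 10 CPM and 0 with limma-voom, and ran from 2 to 7 when each unit was left out. Signs turned over all columns as follows. With column totals, Ccl22 was -1.19, Ccl4 -0.84, Ccl9 -0.79, Cxcl16 -0.80 and Cxcl9 -0.40. With at least 10 CPM, Ccl22 was -1.41, Ccl4 -1.25, Ccl9 -1.12, Cxcl16 -1.11, Cxcl2 -0.49 and Cxcl9 -0.80. With depth as a covariate, Ccl7 was -0.63, Ccl8 -0.56, Ccl9 -0.32, Cxcl16 -0.51, Cxcl9 -1.57 and Pf4 -2.13. With limma-voom, Ccl4 was -0.26 and Ccl5 0.16, and with sums per shared second name Ccl4 was -0.26. Ccl22 was -0.017 with DESeq2 and -0.028 with no filter. Leaving out each sample gave -0.78 to 0.90 for Ccl22, -0.17 to 2.34 for Ccl9, -0.28 to 1.82 for Cxcl16, -1.75 to 1.06 for Ccl5 and -0.75 to 0.73 for Ccl4. Below 60 M, Cxcl12 was -0.064 with column totals and -0.21 with at least 10 CPM, Ccl7 was 0.21 with limma-voom, and leaving out each sample gave -1.35 to 1.20 for Ccl7 and -0.017 to 3.45 for Ccl11. The cause was not tested for any of these.

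Samples 3 and 4 share a number across the labels, and the labels do not say what the number stands for. Their deviations from the group means had r = 0.015 and -0.073 over genes, against -0.19 to 0.22 for samples with different numbers. With 3 samples in each mean, these values cannot show whether samples of a number had a common origin. With the replicate block over all columns, 0 ligands were called in either direction, Ccl22 was -1.63 and Cxcl16 -0.38, and below 60 M the count stayed at 0. Number 1 occurs only under Olfr2- and number 2 only under Olfr2+, so the block draws the label difference from samples 3 and 4 alone. The block therefore cannot decide whether a call over all samples holds. The block could not be fitted within Olfr2+, where no residual degrees of freedom remain.

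Over all genes and columns, the calls (273 higher and 112 lower) became 3627 and 3347 with DESeq2, 642 and 239 with no filter, 885 and 683 with sums per shared second name, 2 and 0 with the replicate block, and 0 and 0 with at least 10 CPM, limma-voom or the depth covariate. Between deep and other Olfr2+ columns, 623 and 364 became 111 and 40 with column totals and 3684 and 4110 with DESeq2. Of the 280 alternative values of single ligands over all columns, 221 kept their sign and their side of the threshold. 31 turned sign, 6 gained a call and 22 lost one. Most of these ligands were not called, so keeping the side mostly meant staying uncalled. The 22 lost calls are all of Ccl6, Cxcl12 and Ccl11. A count of 3 corresponds to at most 0.100 CPM in any column, while the spread between columns that share a second name reached 673-fold, for Ccl12 with 4 counts in the lower column.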

Other observations

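Cxcl11, the third interferon-induced ligand of CXCR3, is annotated in the table as a polymorphic pseudogene and so falls outside the rule for the ligands. It held 501 counts in Olfr2+ 4A (13.3 CPM of the column total), 165 in Olfr2- 3B (5.18 CPM), 56 in Olfr2- 1A (1.84 CPM) and 0 to 15 in each of the other 12 columns. Olfr2+ 4A and Olfr2- 3B were also the columns with the highest Ccl3 of their label, at 443 and 180 CPM, while Cxcl10 in them stood at 4.13 and 5.66 CPM.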
